A study of Mus musculus with 12 samples.

Results

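The response to CpG DNA was measured in Rab27a knockout neutrophils by comparing 3 stimulated with 3 unstimulated libraries, which are 6 of the 12 libraries in the series. The members were chosen from the labels of genotype and treatment alone. The cells were Ly6G-selected mature neutrophils from the bone marrow of C57BL/6 Rab27aKO mice. They were kept for 6 h with 5 µM of CpG-B (the oligonucleotide ODN 1826) or without it, and the labels call the second group both untreated and vehicle-treated. The other 6 libraries hold the same 2 conditions, 3 libraries each, in wild-type C57BL/6 neutrophils. All 12 were made from polyadenylated RNA. The labels give neither the knockout allele nor the number, sex or age of the mice, and nothing in them says whether libraries that share a number came from 1 animal. The p-values therefore measure the spread between these libraries, which may be in part technical. By its title the series asks how loss of Rab27a affects nucleic acid sensing and cytokine secretion.

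Unmethylated CpG DNA is recognised by TLR9, a receptor that signals from endosomes through the adaptor MyD88. Its signal releases NF-kB from the IkB proteins and activates interferon regulatory factors, and the secreted cytokines and interferons then act back on the cells through JAK kinases and STAT factors. CpG oligonucleotides of the B class are known as strong NF-kB activators that induce little interferon in plasmacytoid dendritic cells. Rab27a is a small GTPase that docks secretory vesicles at the plasma membrane, and in neutrophils it serves the release of granules.

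Rab27a itself was counted at 129, 116 and 94.9 CPM (counts scaled to a common library total) in the unstimulated knockout libraries 1, 2 and 3, and at 114, 113 and 96.1 CPM in the CpG libraries 1, 2 and 3. Every list of 3 values below has this order. Wild-type libraries held 231, 251 and 335 CPM without and 207, 216 and 285 CPM with CpG, so each knockout library lay below each wild-type library, and none was near 0. Knockout library totals ran from 10928813 to 15513279 counts. Mature neutrophil markers were abundant in all 6 knockout libraries, with a summed level of 83300 to 125400 CPM for the 15 genes of that list, and CpG library 2 was the lowest. Libraries that share a number stood apart from the others in the genes of other cells. The 11 erythroid markers summed to 522, 1981 and 6390 CPM without and to 588.6, 1805 and 6420 CPM with CpG. The 11 B lineage markers, which include Cd74, a gene that rose with CpG, summed to 38.5, 83.3 and 179.1 CPM and to 86.8, 152.6 and 227.9 CPM. List counts were therefore also made without both libraries numbered 1 and without both numbered 3. They are given for the NF-kB, interferon and MHC lists and wherever they moved by over 1.5 times.

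CpG changed 1257 of the 10802 genes tested in the knockout, or 11.6% (edgeR's quasi-likelihood test, Benjamini-Hochberg adjusted p at most 0.05). Of all genes tested, 818 rose (7.57%) and 439 fell (4.06%), and the median log2 change over all genes was -0.01. The rises and falls counted in each gene list below are to be set beside these 2 shares. The rises were the larger: 460 genes rose and 93 fell by at least 2-fold, and 77 rose by at least 8-fold. The median log2 change was 1.10 among genes that rose and -0.68 among those that fell. Genes that rose had a median unstimulated level of 28.6 CPM and those that fell of 58.5 CPM, against 18.2 CPM over all genes tested. In 803 of the 818 rises and 434 of the 439 falls the 3 CpG libraries did not overlap the 3 unstimulated ones. These genes were called on the same values, so the separation adds no evidence of its own, and its share over all genes is not given here. Scaling by library size alone shifted the median of all genes to -0.09 and called 739 rises and 778 falls, so the number of falls depends on the scaling. Leaving out unstimulated library 2 left 818 called genes with 207 falls, and leaving out unstimulated library 1 left 222 falls. Without both libraries numbered 1 there were 670 rises and 298 falls, and without both numbered 3 there were 666 and 293.

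**Figure D1:**
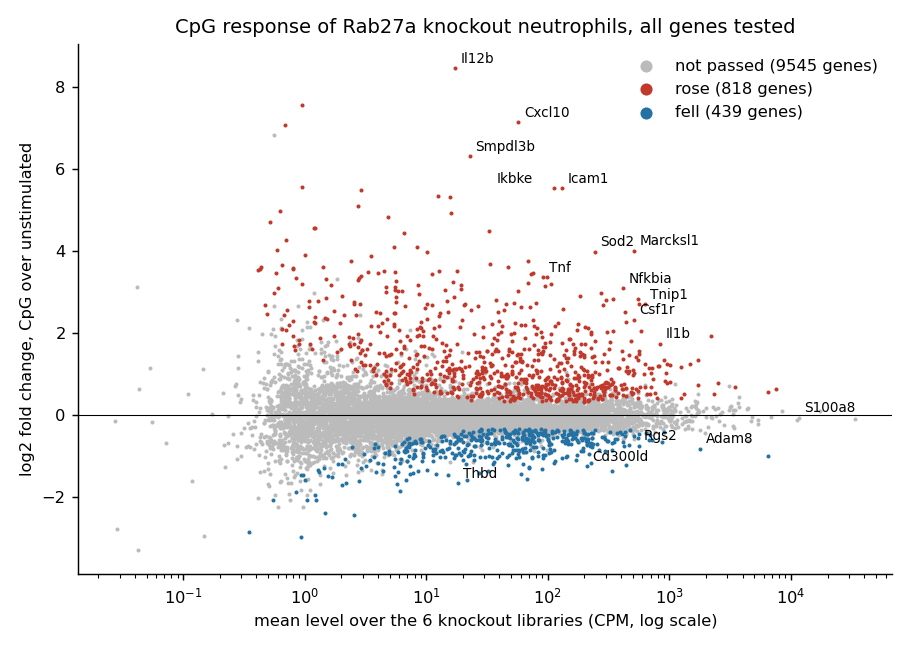
Each point is 1 of the 10802 genes tested, by its mean level over the 6 knockout libraries (CPM, log scale) and its log2 fold change with CpG. The 818 genes that rose (red) reach log2 8.46 for Il12b, while most of the 439 that fell (blue) lie above -2.

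The highest rises among genes of at least 5 CPM on average and with separate groups were in Il12b, Cxcl10, Smpdl3b and Ikbke. Il12b encodes the p40 chain shared by the cytokines IL-12 and IL-23. It was counted 0, 1 and 2 times without and 349, 480 and 519 times with CpG, a ratio of 391.8 with a 95% counting interval of 133.8 to 1902. These counts give 0, 0.088 and 0.168 CPM without and 30.4, 32.8 and 40.6 CPM with CpG (log2 8.46 ± 0.59 SE, edgeR adjusted p = 4.6e-07). All 3 CpG libraries lay far above all 3 unstimulated ones and close to one another. Cxcl10, which encodes an interferon-induced chemokine for T cells, went from 0.378, 0.879 and 1.09 CPM to 55.1, 112 and 175 CPM (log2 7.15 ± 0.65, adjusted p = 5.62e-06). The groups were again far apart, but the CpG libraries were more spread than for Il12b, with library 3 highest and library 1 lowest. Smpdl3b, a lipid-modifying membrane enzyme that restrains TLR signals, went from 0.567, 0.791 and 0.335 CPM to 39.4, 54.1 and 42.5 CPM (log2 6.31 ± 0.24, adjusted p = 2.35e-09). Ikbke, the kinase IKK-epsilon, went from 3.78, 4.39 and 6.03 CPM to 218, 274 and 172 CPM (log2 5.54 ± 0.24, adjusted p = 3.71e-09).

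The promoters of these 4 genes are shown because they are the ones that rose most. Each is a RefSeq window of the build GRCm38.p6, 250 bases before to 50 after the start, read 5′ to 3′ on the gene's strand: Il12b chr11:44399813-44400112 on the plus strand, Cxcl10 chr5:92348840-92349139, Smpdl3b chr4:132757122-132757421 and Ikbke chr1:131279514-131279813 on the minus strand. Capitals mark matches, on either strand, to 4 letter patterns: GGANTTTCC (a kB-type site), GAAANNGAA (interferon response), TTCNNNGAA (gamma-activated site) and TGANTCA (AP-1).
Il12b: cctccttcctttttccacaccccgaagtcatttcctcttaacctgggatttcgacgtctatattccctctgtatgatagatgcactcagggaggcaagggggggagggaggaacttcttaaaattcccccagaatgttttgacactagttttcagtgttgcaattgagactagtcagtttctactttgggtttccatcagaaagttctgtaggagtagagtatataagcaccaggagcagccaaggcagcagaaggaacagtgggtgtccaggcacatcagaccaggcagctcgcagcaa
Cxcl10: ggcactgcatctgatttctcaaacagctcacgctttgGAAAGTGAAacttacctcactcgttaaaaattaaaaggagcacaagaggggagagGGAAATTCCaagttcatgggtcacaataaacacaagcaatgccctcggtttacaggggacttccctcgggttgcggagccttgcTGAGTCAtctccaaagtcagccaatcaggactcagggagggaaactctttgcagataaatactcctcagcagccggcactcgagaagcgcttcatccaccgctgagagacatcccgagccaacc
Smpdl3b: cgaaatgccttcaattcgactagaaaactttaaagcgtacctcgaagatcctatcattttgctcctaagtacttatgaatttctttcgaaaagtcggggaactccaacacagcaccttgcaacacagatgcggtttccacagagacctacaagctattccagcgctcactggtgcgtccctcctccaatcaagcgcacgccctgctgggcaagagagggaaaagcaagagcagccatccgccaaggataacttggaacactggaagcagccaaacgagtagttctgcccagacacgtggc
Ikbke: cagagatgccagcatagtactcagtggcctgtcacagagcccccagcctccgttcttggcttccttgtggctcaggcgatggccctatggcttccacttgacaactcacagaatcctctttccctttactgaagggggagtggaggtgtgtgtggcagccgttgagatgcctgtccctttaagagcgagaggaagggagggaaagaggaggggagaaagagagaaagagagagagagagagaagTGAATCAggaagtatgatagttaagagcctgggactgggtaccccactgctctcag
The Cxcl10 window held the kB-type letters GGAAATTCC from 158 bases before the start, the interferon response letters GAAAGTGAA from 213 bases before and TGAGTCA from 74 bases before, and the Ikbke window held TGAATCA from 6 bases before. The Il12b and Smpdl3b windows held none of these letters, which says nothing of the factors.

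Over the 8755 tested genes that have a window in that table, the kB-type letters stood in 5.96% of the 671 genes that rose, in 9.09% of the 143 that rose at least 4-fold, and in 1.11% of the 360 that fell, against 1.64% of all tested. The interferon response letters stood in 15.1% of genes that rose and 20.3% of those that rose at least 4-fold, against 7.78% of genes that fell and 8.94% of all. Gamma-activated letters were in 12.1%, 16.1%, 5.56% and 8.35% of the same 4 sets. AP-1 letters were in 8.94%, 15.4%, 7.78% and 6.40%. Over all 32851 windows of the table, the shares were 1.25% for the kB-type, 8.56% for the interferon response, 8.30% for the gamma-activated and 7.81% for the AP-1 letters. The kB-type and gamma-activated patterns can overlap, genes with several starts count once, and no test was made.

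Receptors and adaptors on the way from CpG to NF-kB changed in part. Of 17 tested genes for endosomal Toll-like receptors and their chaperones, 3 rose and 1 fell (median log2 0.07). Over all genes tested 7.57% rose and 4.06% fell. Tlr9, the CpG receptor, was counted at 3.21, 2.11 and 4.02 CPM without and 8.72, 11.2 and 10.1 CPM with CpG, and the groups did not overlap (log2 1.68 ± 0.23, edgeR adjusted p = 0.000265). Tlr7, a receptor for single-stranded RNA, rose by log2 0.88 ± 0.14 (adjusted p = 0.000742). Tlr8 fell (log2 -0.65, adjusted p = 0.014) and Unc93b1, the chaperone that carries these receptors to endosomes, rose by log2 0.48 (adjusted p = 0.0133). Both of those calls ended without single libraries: for Unc93b1 without unstimulated library 2 (adjusted p = 0.0581) or 3 (0.0746), and for Tlr8 without CpG library 2 (0.0562) or unstimulated library 1 (0.0701). Without both libraries numbered 3 the Tlr8 call ended as well.

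Of 20 genes of the MyD88 complex and the TAK1 step, 5 rose and 1 fell (median log2 0.09). Irak3, a kinase-like inhibitor of this complex, went from 153, 157 and 146 CPM to 792, 729.7 and 661 CPM (log2 2.26 ± 0.15, edgeR adjusted p = 4.6e-07). Map3k8, the kinase TPL2, went from 18.7, 13.6 and 13.1 CPM to 65.5, 71.6 and 68.9 CPM (log2 2.18 ± 0.16). Myd88 itself rose from 98.7, 97.4 and 84.8 CPM to 193, 242 and 207 CPM (log2 1.19 ± 0.11, adjusted p = 9.77e-06). In all of them the 2 groups were separate. Map3k5, the stress kinase ASK1, fell (log2 -0.59 ± 0.12), while Irak4 (log2 0.20 ± 0.11, adjusted p = 0.32) and Irak1 (log2 -0.27 ± 0.09, adjusted p = 0.0748) did not pass. Without both libraries numbered 1 the list had 4 rises and without both numbered 3 it had 3.

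The inhibitors and feedback genes of NF-kB rose nearly together: 11 of 15 rose and none fell, with a median log2 change of 1.57, and 11 rises were also counted without both libraries numbered 1 and without both numbered 3. Nfkbia, which encodes the inhibitor IkB-alpha, went from 85.5, 89.3 and 87.2 CPM to 701, 879.7 and 649.7 CPM (log2 3.09 ± 0.12, edgeR adjusted p = 2.68e-09). Tnfaip3, the deubiquitinase A20, went from 55.6, 65.3 and 63.9 CPM to 452, 495 and 517 CPM (log2 2.99 ± 0.18, adjusted p = 1.38e-07). The unstimulated libraries were nearly equal in both genes and every CpG library was several times as high as every unstimulated one. Nfkbie, a further IkB protein, rose by log2 3.46 ± 0.20, and Tnip1, an A20 partner, from 165, 170.4 and 168 CPM to 1065, 1342 and 857 CPM (log2 2.70 ± 0.16, adjusted p = 7.89e-08). Bcl3 rose by 2.64 ± 0.23, Nfkbib by 1.57 ± 0.14 and Nfkbiz, which encodes IkB-zeta, by 1.41 ± 0.12 on the log2 scale.

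Among Rel subunits and IkB kinases 9 of 14 rose and none fell (median log2 0.69), and 8 did so without either numbered pair. The list holds Ikbke, described above, as its highest change. Among the Rel subunits those of the non-canonical arm moved most. Relb went from 20.9, 21.1 and 20.9 CPM to 169, 234 and 172 CPM (log2 3.19 ± 0.14, edgeR adjusted p = 3.71e-09) and Nfkb2 from 83.1, 88.5 and 81.4 CPM to 563, 695 and 535 CPM (log2 2.82 ± 0.13, adjusted p = 7.31e-09). Nfkb1, Rela and Rel, the canonical subunits, rose less, by 1.01 ± 0.11, 0.72 ± 0.13 and 0.66 ± 0.12. Chuk (log2 0.06 ± 0.11) and Ikbkb (log2 -0.08 ± 0.11), the catalytic IKK subunits, did not pass.

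TRAF adaptors, cIAPs and RIP kinases gave 6 rises among 18 and no fall (median log2 0.41). Traf1 went from 1.89, 2.46 and 3.94 CPM to 54.96, 69.98 and 61.8 CPM (log2 4.48 ± 0.21, edgeR adjusted p = 7.31e-09). Birc3, which encodes cIAP2, went from 131, 136 and 115 CPM to 759.6, 743 and 699 CPM (log2 2.53 ± 0.11, adjusted p = 3.71e-09). In both genes the lowest CpG library stood several times above the highest unstimulated one. Traf3 rose by 1.49 ± 0.13 and Tank, an adaptor of the TBK1 and IKK-epsilon kinases, by 1.07 ± 0.12 on the log2 scale.

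On the MAP kinase branch of the same signal 4 of 19 kinase genes rose and 3 fell (median log2 -0.01). The shares over all genes tested were 7.57% and 4.06%. Mapkapk2, the kinase MK2 that stabilises cytokine messages, went from 263, 307 and 309 CPM to 831, 875 and 759 CPM (log2 1.49 ± 0.11, edgeR adjusted p = 8.25e-07). Mapk14, the p38 kinase upstream of it, went from 346, 299 and 258 CPM to 736, 608 and 499 CPM (1.03 ± 0.17), and Map2k4, a kinase that activates JNK, fell (-0.55 ± 0.10). In the first 2 the groups were separate with all CpG libraries higher. Of 26 AP-1 and immediate early genes 6 rose and 2 fell (0.19). Batf, a partner of JUN proteins, went from 4.25, 3.87 and 2.68 CPM to 8.55, 16.8 and 16.03 CPM (1.94 ± 0.28, adjusted p = 0.000343), Junb rose by 1.06 ± 0.17 and Ier3 by 1.49 ± 0.25. The 2 falls of the AP-1 list were not called without both libraries numbered 1.

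Of 15 mRNA decay factors, which end cytokine messages, 4 rose and 1 fell (median log2 0.06), beside 7.57% and 4.06% of all genes. The counts were the same without either numbered pair. Zc3h12a, the RNase regnase-1, went from 35.8, 27.9 and 30.5 CPM to 84.8, 127 and 75.5 CPM (log2 1.61 ± 0.18, edgeR adjusted p = 4.81e-05). Zfp36l1 and Zfp36l2, relatives of the AU-rich element binder tristetraprolin, moved in opposite directions, from 15.2, 17.7 and 15.6 CPM to 37.6, 80.03 and 42.9 CPM (1.73 ± 0.26) and from 302, 295 and 274 CPM to 214, 163 and 161 CPM (-0.69 ± 0.12). Neither pair of groups overlapped.

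Of 23 tested cytokine genes 12 rose and 3 fell, with a median log2 change of 0.84. Tnf went from 15.1, 17.5 and 16.1 CPM to 164, 175 and 161 CPM (log2 3.36 ± 0.12, edgeR adjusted p = 2.18e-09), and neither group spread by much. Il1b, which encodes interleukin-1 beta, was already high and went from 408, 419 and 341 CPM to 1279, 1239.7 and 1382 CPM (log2 1.74 ± 0.20, adjusted p = 5.93e-05). Il10, an anti-inflammatory cytokine, was counted once in each unstimulated library and 24, 25 and 41 times with CpG, a ratio of 26.2 with a counting interval of 8.67 to 129.2. Il23a, the second chain of IL-23, was counted 3, 2 and 1 times and then 20, 21 and 25 times, a ratio of 9.59 (4.18 to 27.1). Il12a, the second chain of IL-12, went from 1.98, 1.76 and 2.09 CPM to 7.15, 5.19 and 10.1 CPM (log2 1.93 ± 0.26, adjusted p = 0.000246). Both partners of p40 were thus counted less often than Il12b after CpG, with no correction for length. The receptor antagonist Il1rn rose by 0.79 ± 0.15 and Tgfb1 by 0.91 ± 0.10.

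Of Il1b, Il1rn, Tnf, Il12b and Il23a, compared per transcript length, Il1b was the most abundant after CpG, at 1537 TPM (a level scaled by transcript length, SD 173), followed by Il1rn at 231 TPM (SD 22.6), Tnf at 155 TPM (SD 15.1), Il12b at 19.9 TPM (SD 4.46) and Il23a at 2.03 TPM (SD 0.349). The 5 genes were chosen after their values were seen. Il6 at log2 1.72 ± 0.54 (adjusted p = 0.0564) and Csf3 at 1.97 ± 0.69 (adjusted p = 0.0896) did not pass. Il6 did by DESeq2 (0.0244), by edgeR with no filter on low counts (0.0455) and with library number within genotype as a replicate block (0.0119), called the block from here on. Ifnb1, the gene of interferon beta, was counted 0 times in 5 knockout libraries and once in CpG library 3, so it was at or under the limit of 3 counts that a count of 0 allows in each library.

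The cytokine genes that fell were Spp1 (osteopontin), Il18 and Osm (oncostatin M). Spp1 went from 195, 228 and 271 CPM to 73.8, 100.3 and 149 CPM (log2 -1.10 ± 0.25, edgeR adjusted p = 0.0101), with no overlap. Il18 (log2 -0.97 ± 0.25) and Osm (log2 -0.54 ± 0.14) fell less. Single libraries decided these calls: without CpG library 2 the adjusted p of Spp1 was 0.0511. For Il18 it was 0.0869 without unstimulated library 1, 0.103 without unstimulated library 2 and 0.0641 without CpG library 1. For Osm it was 0.0973 without unstimulated library 2 and 0.061 without CpG library 1. Only 1 of the 3 falls was called without both libraries numbered 1. Among TNF superfamily ligands 3 of 8 rose and 1 fell (median log2 0.74). Ltb, a lymphotoxin chain, went from 79.6, 85.5 and 58.3 CPM to 412, 304 and 268 CPM (log2 2.14 ± 0.18), while Tnfsf14, the ligand LIGHT, went from 105, 111 and 80.5 CPM to 55.8, 36.7 and 30.6 CPM (log2 -1.27 ± 0.22, adjusted p = 0.00158).

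**Figure D2:**
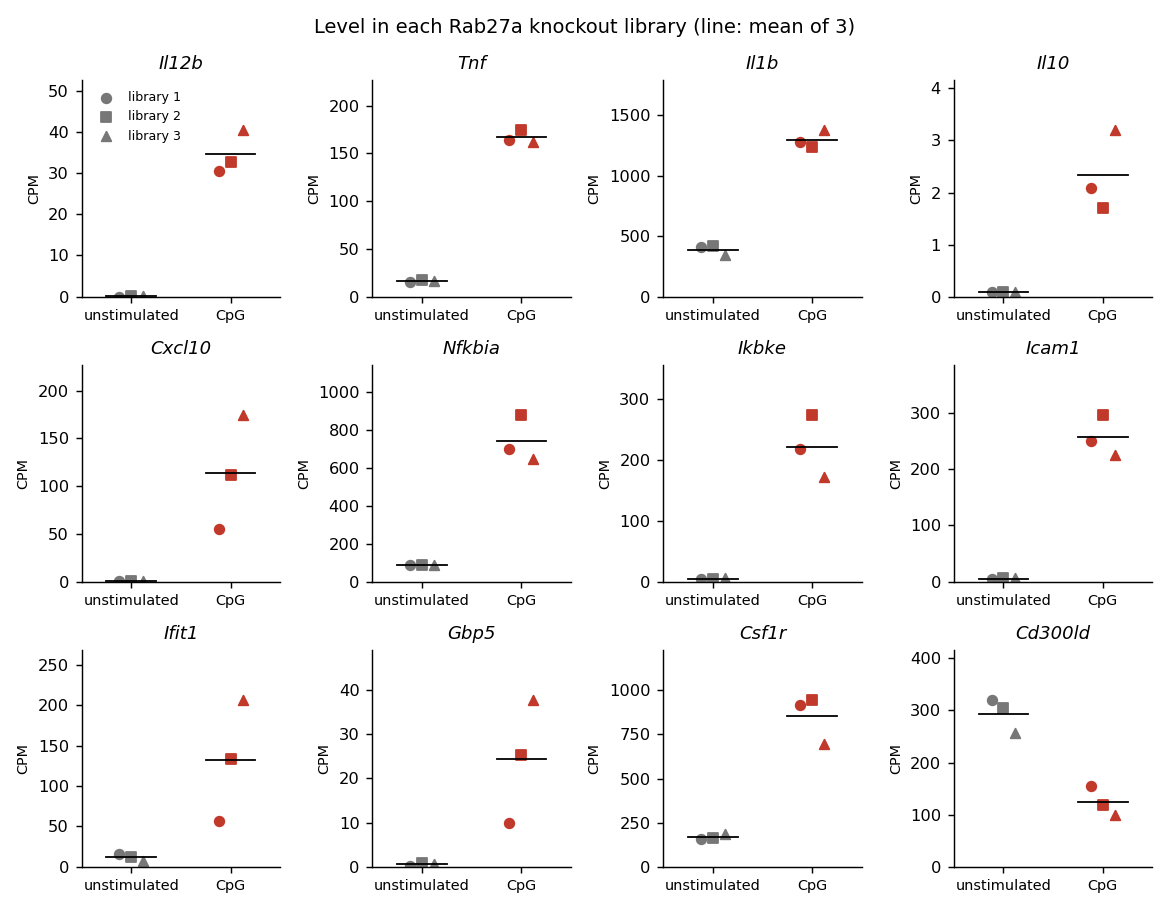
Level of 12 genes in CPM in each knockout library (vertical axis from 0, 1 symbol per library number, line at the mean of 3), unstimulated in grey and CpG in red. Il12b, Tnf, Il1b and Nfkbia lie close together within each group, whereas Cxcl10, Ifit1 and Gbp5 are lowest in CpG library 1 and highest in CpG library 3.

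Chemokine genes gave 6 rises and 1 fall among 13 tested (median log2 0.91). Ccl5, a T cell and monocyte attractant, went from 0.567, 0.703 and 1.42 CPM to 10.5, 13.3 and 23.5 CPM (log2 4.10 ± 0.44, edgeR adjusted p = 2.5e-05). Cxcl2, a ligand of the neutrophil receptor CXCR2, went from 27.5, 39.4 and 27.9 CPM to 52.2, 62.5 and 62.9 CPM (log2 0.91 ± 0.15, adjusted p = 0.000971). Cxcl2 thus moved far less than Ccl5, although its groups did not overlap. Cxcl16 rose by 2.48 ± 0.40 and Ccl3 by 0.94 ± 0.18, and Ccl4 did not pass at log2 0.75 ± 0.33. The fall was in Ccl6, from 564, 573 and 315 CPM to 264, 181 and 120.0 CPM (log2 -1.36 ± 0.27, adjusted p = 0.00398).

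Receptors for attractants moved in both directions. Fpr1 and Fpr2, receptors for formylated bacterial peptides, rose from 238, 223 and 185 CPM to 838, 731 and 677 CPM (log2 1.80 ± 0.15) and from 168, 152 and 131 CPM to 474, 380.4 and 425 CPM (log2 1.502 ± 0.12). Gpr84, a receptor for medium-chain fatty acids, rose from 9.54, 8.08 and 10.6 CPM to 112, 156 and 115 CPM (log2 3.76 ± 0.15, edgeR adjusted p = 2.68e-09), and Ccrl2, an atypical receptor that binds chemerin, by log2 2.60 ± 0.26. All of these had separate groups. Cxcr2 at log2 0.11 ± 0.20 (adjusted p = 0.838) and Cxcr4, the receptor that holds neutrophils in the marrow, at -0.15 ± 0.12 (adjusted p = 0.528) did not pass. Cxcr3 fell (log2 -1.57 ± 0.37), a call that ended without CpG library 2 (adjusted p = 0.0592) or unstimulated library 1 (0.0657). Rgs1 and Rgs2, which shorten signals of such G protein-coupled receptors, fell (log2 -1.29 and -0.75, adjusted p = 0.00585 and 0.00882), and the phosphodiesterase gene Pde4b rose by 1.46 ± 0.11.

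Genes induced by interferons rose in most members of 4 lists and in 3 of 8 of the OAS list, and no fall was called among them. Of 15 guanylate-binding and immunity-related GTPases 12 rose (median log2 2.65), of 10 PYHIN genes 7 (2.33), of 6 IFIT genes 5 (2.71), of 8 OAS genes 3 (1.15) and of 48 other antiviral effectors 30 (1.23). Without both libraries numbered 1 these counts were 12, 8, 5, 3 and 28. Without both numbered 3 they were 9, 7, 2, 1 and 21. Under library-size scaling and under the block, 1 OAS list member and 1 PYHIN gene were called as falls. Members of these families are close copies of one another, so the deposited expected counts may divide shared reads among them.

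Ifit1, which binds viral RNA, went from 16.3, 12.6 and 7.71 CPM to 56.4, 133 and 206 CPM (log2 3.44 ± 0.52, edgeR adjusted p = 0.000516). Isg15, a ubiquitin-like modifier, went from 16.2, 21.96 and 20.8 CPM to 52.4, 103 and 213 CPM (log2 2.64 ± 0.46, adjusted p = 0.00155). The groups did not overlap in either, and CpG library 1 was the lowest of its group. Gbp2 went from 5.01, 5.71 and 3.77 CPM to 39.7, 67.9 and 78.7 CPM (log2 3.69 ± 0.38, adjusted p = 1.85e-05) and Gbp5, which helps open pathogen vacuoles and assemble inflammasomes, from 0.283, 0.879 and 0.586 CPM to 9.86, 25.3 and 37.7 CPM (log2 5.35 ± 0.64, adjusted p = 6.88e-05). Ifi204, a PYHIN sensor of DNA, went from 92.00, 76.9 and 61.4 CPM to 469, 515 and 501 CPM (log2 2.69 ± 0.27). Rsad2, the antiviral enzyme viperin, rose by 2.14 ± 0.36, Usp18, which removes ISG15, by 2.57 ± 0.37, Trex1, a DNA exonuclease, by 2.70 ± 0.28 and Zbp1, a sensor of Z-form nucleic acid, by 2.69 ± 0.48. Tgtp1 was counted 0 times in each unstimulated library and in CpG library 1, and 21 and 54 times in CpG libraries 2 and 3, which is at least 7.27-fold higher against 3 counts per unstimulated library. Its call ended without any 1 of the other libraries, CpG library 1 excepted, with adjusted p of 0.0559 to 0.0907.

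Aim2, the PYHIN gene of the DNA inflammasome, did not rise with its family: it was counted at 137, 135 and 111 CPM without and 117, 91.2 and 88.7 CPM with CpG (log2 -0.36 ± 0.13, edgeR adjusted p = 0.105) and did not pass. It passed, as a fall, without CpG library 1 (0.0237) or unstimulated library 3 (0.0394), under library-size scaling (0.0206) and under the block (0.00598). Mndal (log2 1.57 ± 0.61) and Ifi203 (log2 1.49 ± 0.47) did not pass either, but did without CpG library 1 (0.0128 and 0.0244) or unstimulated library 3 (0.0342 and 0.0194). Oas2 and Oas3, enzymes that sense double-stranded RNA, were higher at log2 1.05 ± 0.36 and 1.14 ± 0.38 with edgeR adjusted p of 0.089 and 0.0708. Both passed with no filter on low counts (0.0267 and 0.0186), in a fit of the 6 knockout libraries alone (0.0193 and 0.0339) and under the block (0.000946 and 0.000656).

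Factors upstream of these genes were also among the rises. All 9 interferon regulatory factor genes tested were higher with CpG and 5 passed (median log2 0.91), also without either numbered pair. Irf1 went from 98.4, 104 and 77.3 CPM to 203, 269 and 345 CPM (log2 1.55 ± 0.19, edgeR adjusted p = 9.84e-05), Irf5, a factor of the MyD88 pathway, from 25.8, 26.97 and 25.5 CPM to 75.9, 82.97 and 66.8 CPM (1.53 ± 0.11) and Irf7 from 83.3, 78.6 and 54.4 CPM to 136, 241 and 216 CPM (1.46 ± 0.27). On the log2 scale Stat2 rose by 1.49 ± 0.24, Jak2 by 0.91 ± 0.14 and Tyk2, a kinase of the interferon receptor, by 2.17 ± 0.17, while Stat3 did not pass (log2 0.14 ± 0.12, adjusted p = 0.566). Ifnar1, a chain of that receptor, rose from 165, 161 and 141 CPM to 308, 326 and 267 CPM (log2 0.95 ± 0.10).

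Sensors of nucleic acid in the cytosol rose in 7 of 19 genes, with no fall (median log2 0.15), and in 9 and 6 without the libraries numbered 1 and 3. Cgas, the DNA sensor that makes cGAMP, went from 8.12, 7.995 and 8.29 CPM to 16.4, 27.9 and 23.1 CPM (log2 1.47 ± 0.20, edgeR adjusted p = 0.000287). Ddx58, the RNA sensor RIG-I, went from 161, 129.7 and 99.9 CPM to 289.6, 394 and 372 CPM (1.44 ± 0.22) and Ifih1, the RNA sensor MDA5, from 20.3, 13.6 and 12.6 CPM to 34.3, 60.3 and 76.5 CPM (1.88 ± 0.33). All 3 had separate groups. Nlrc5, which activates MHC class I genes, rose by 1.53 ± 0.20. Of 15 PARP family genes 4 rose and none fell (0.14), with Parp14 the highest, from 89.5, 74.8 and 62.2 CPM to 360.0, 584 and 650.0 CPM (log2 2.82 ± 0.26, adjusted p = 5.62e-06). Parp9 and its partner Dtx3l, neighbours in the genome, rose by 1.51 ± 0.19 and 1.79 ± 0.25.

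The knockout CpG libraries differed from one another more in IFIT, PYHIN, GBP and antiviral effector genes than in NF-kB genes. Over the 5 IFIT genes that rose, CpG library 3 held a median 3.66 times the level of CpG library 1, and over 11 GBP and IRG genes without a count of 0 it held 2.92 times. For the 29 antiviral effectors without a count of 0 it was 1.95 times, and CpG library 1 was the lowest of the 3 in 27 of them. Between the highest and the lowest CpG library, whichever they were, the median ratio was 3.66 for these IFIT genes, 3.92 for 6 PYHIN genes, 2.92 for the GBP and IRG genes, 2.07 for the antiviral effectors and 1.45 for the 3 OAS genes that rose. It was 1.38 for the 11 NF-kB inhibitors that rose, 1.31 for 9 Rel subunits and kinases and 1.35 over 796 genes that rose, so the OAS genes were close to these. The unstimulated libraries were ordered the other way in part: over the same 29 effectors, unstimulated library 3 held a median 0.732 of the level of library 1. The summed erythroid and B lineage markers were highest in both libraries numbered 3 and lowest in both numbered 1, and their part in this spread was not tested. Within the wild-type CpG libraries the highest held a median 3.00 times the lowest over the same IFIT genes and 1.88 times over the same antiviral effectors. The ratio was 2.02 for the PYHIN genes, 1.78 for the GBP and IRG genes, 1.75 for the OAS genes and 1.16 for the NF-kB inhibitors. It was thus nearer to that of the knockout for IFIT genes and effectors than for PYHIN, GBP and IRG genes, and this difference was not tested.

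Antigen presentation on MHC class I rose in most of its genes: 16 of 25 rose and none fell (median log2 1.02), with 15 and 14 rises without the libraries numbered 1 and 3. B2m, the light chain, went from 636, 583 and 499 CPM to 1408, 1382 and 1269 CPM (log2 1.24 ± 0.14, edgeR adjusted p = 5.22e-05). Tap1, a subunit of the peptide transporter, went from 105, 87.8 and 70.1 CPM to 248, 353 and 266 CPM (log2 1.72 ± 0.20). Psme2, an activator of the proteasome, rose by 1.57 ± 0.11 and the heavy chain gene H2-K1 by 1.15 ± 0.14. H2-D1, the other classical heavy chain, did not pass (log2 0.13 ± 0.16, adjusted p = 0.716), and the 2 genes are similar enough to share reads. No gene of the standard proteasome passed among 31 tested by edgeR, with 7 at an unadjusted p under 0.05 and 0 called by DESeq2. Of the 31, 29 were higher with CpG by small amounts (median log2 0.18), and 2 were called as rises under the block.

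**Figure D3:**
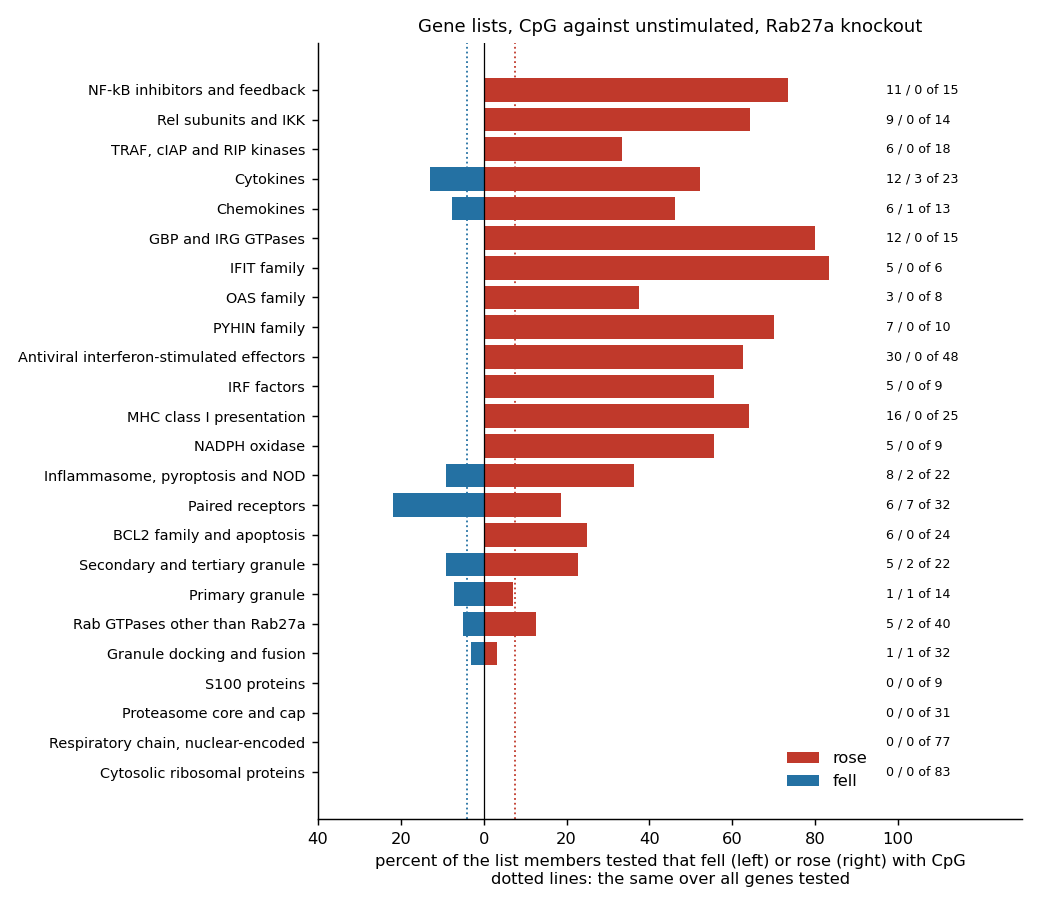
Percent of the tested members of 24 gene lists that rose (red, right) or fell (blue, left) with CpG in the knockout, with counts at the right as rose / fell of tested and dotted lines at 7.57% and 4.06% for all genes. The longest bars are those of the IFIT (5 of 6), GBP and IRG (12 of 15) and NF-kB inhibitor (11 of 15) lists, the granule docking list stays within both dotted lines, and the lowest 4 lists have no call.

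Of 22 genes of MHC class II, costimulators and checkpoint ligands 6 rose and 1 fell, with 8 rises and 1 fall without both libraries numbered 1 and 9 rises and no fall without both numbered 3. Cd40, a receptor for T cell help, went from 0.094, 0.615 and 1.005 CPM to 6.63, 9.77 and 14.2 CPM (log2 4.11 ± 0.53, edgeR adjusted p = 0.000149). Cd274, the inhibitory ligand PD-L1, went from 81.9, 72.5 and 61.5 CPM to 144, 189 and 192 CPM (1.28 ± 0.16, adjusted p = 8.71e-05) and Icosl from 89.8, 90.4 and 77.6 CPM to 208, 207 and 145 CPM (1.12 ± 0.14). Cd40 was low and highest in CpG library 3, where the summed B lineage markers were also highest. Of the 9 B lineage markers tested 1 passed, which was Cd74, counted 305, 545 and 890 times without and 866, 1647 and 1403 times with CpG. That call ended without CpG library 2 or 3 or unstimulated library 1 or 2. The B lineage sum thus holds a gene that itself rose with CpG. Cd79a, another of the markers, was counted 17, 57 and 213 times and then 9, 33 and 111 times. None of the markers was at 0 in the knockout, and their part in the Cd40 value was not tested. The fall was in Cd86, a costimulator of T cells, from 36.2, 28.3 and 25.5 CPM to 20.9, 12.2 and 16.6 CPM (log2 -0.86 ± 0.24, edgeR adjusted p = 0.0296). That call ended without CpG library 2 (0.11) or 3 (0.0621) or unstimulated library 1 (0.134) or 2 (0.0704). Cd80, its relative, did not pass at log2 -0.21 ± 0.22. Icam1, the ligand of the leukocyte integrins, was among the largest rises of all, from 4.25, 5.80 and 6.53 CPM to 250.1, 297 and 226 CPM (log2 5.53 ± 0.25, adjusted p = 5.2e-09).

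Inflammasome genes gave 8 rises and 2 falls among 22 (median log2 0.14). Casp4, the mouse caspase-11 that senses lipopolysaccharide, went from 12.3, 12.6 and 11.98 CPM to 94.5, 87.7 and 120.4 CPM (log2 3.04 ± 0.18, edgeR adjusted p = 8.24e-08). Mefv, which encodes pyrin, went from 46.9, 42.96 and 39.6 CPM to 324, 338 and 308 CPM (log2 2.90 ± 0.16, adjusted p = 6.64e-08). Both sets of groups were far apart with little spread. Nlrp3 rose by 1.28 ± 0.16, Nod1 and Nod2, sensors of peptidoglycan, by 1.98 ± 0.26 and 1.90 ± 0.24, and Casp1 by 1.42 ± 0.24. The adaptor Pycard (log2 0.09 ± 0.20), the pore former Gsdmd (-0.17 ± 0.16) and Ripk2 (0.18 ± 0.24) did not pass.

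Of 9 genes of the NADPH oxidase, the source of the oxidative burst, 5 rose and none fell (median log2 0.53), with 3 and 4 without the numbered pairs 1 and 3. Cybb, its catalytic subunit gp91phox, went from 849, 725 and 705 CPM to 1772, 1783 and 1582 CPM (log2 1.17 ± 0.13, edgeR adjusted p = 3.3e-05). Cyba, the partner p22phox, rose by 0.69 ± 0.12 and the cytosolic subunit Ncf4 by 0.68 ± 0.11. Sod2, the mitochondrial superoxide dismutase, went from 29.7, 25.7 and 31.1 CPM to 468, 426 and 473 CPM (log2 3.98 ± 0.13, adjusted p = 1.71e-09) with hardly any spread in either group. Nfe2l2, the antioxidant factor NRF2, rose by 1.11 ± 0.12 and its target Hmox1 by 0.88 ± 0.14.

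Granule protein genes gave few calls in the primary granule list, and calls in both directions in the secondary and tertiary list. Of 14 primary granule genes 1 rose and 1 fell, beside 7.57% and 4.06% of all genes tested, with 0 and 2 without both libraries numbered 1. The rise was in Lyz2, lysozyme (log2 0.56 ± 0.16, edgeR adjusted p = 0.0365), and the fall in Gusb, a lysosomal glucuronidase (log2 -0.75 ± 0.14, adjusted p = 0.00283). The Lyz2 call ended with no filter on low counts (0.0755), with the knockout libraries alone (0.103) and without any 1 library except CpG library 3 (0.0562 to 0.158). Mpo was counted 184, 784 and 2657 times without and 210, 891 and 1971 times with CpG. Elane was counted 46, 211 and 606 times and then 50, 185 and 565 times. Both were lowest in the libraries numbered 1 and highest in those numbered 3. With such a spread the fit without a block could miss a change in these genes. Among 22 genes of secondary and tertiary granules 5 rose and 2 fell (median log2 0.11). Hp, haptoglobin, went from 530.2, 540.2 and 450.3 CPM to 1212, 1520.0 and 1140.2 CPM (log2 1.35 ± 0.18, edgeR adjusted p = 0.000189) and Chil1, a chitinase-like protein, from 975, 902 and 762 CPM to 2219, 2301 and 1698 CPM (1.24 ± 0.14, adjusted p = 3.25e-05). Adam8, a surface metalloprotease, went the other way, from 2356, 2427 and 2049 CPM to 1339.9, 1391 and 1147 CPM (-0.82 ± 0.12, adjusted p = 0.000338). The abundant Ltf (lactoferrin) at log2 -0.12 ± 0.17 and Mmp9 (gelatinase) at 0.12 ± 0.23 did not pass. No S100 gene among 9 tested passed by edgeR, none had an unadjusted p under 0.05, and DESeq2 called 0. All 9 had a log2 change below 0, 1 was called as a fall without either numbered pair and 2 under the block. S100a8 was at 12898, 11987 and 10718 CPM without and 15609, 5377 and 13057 CPM with CpG, with CpG library 2 far below the other 5 libraries.

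In the machinery around Rab27a, genes for granule docking and fusion gave 1 rise and 1 fall among 32, a share under that of all genes tested (median log2 -0.01). The rise was in Vamp7 (log2 0.64 ± 0.19), a vesicle SNARE, and the fall in Madd (log2 -0.46 ± 0.11), an exchange factor for Rab3 and Rab27. The Madd call ended without unstimulated library 2 (edgeR adjusted p = 0.0948), and that of Vamp7 without CpG library 1 (0.0906) or 2 (0.145), or unstimulated library 2 (0.128) or 3 (0.17). Without both libraries numbered 1 neither was called. The Rab27a effector Unc13d, which primes granules for fusion, was counted at 181, 169 and 138 CPM and 185, 180.1 and 117 CPM (log2 -0.01 ± 0.18, adjusted p = 0.979). The fusion genes Stx11 at -0.01 ± 0.10 and Stxbp2 at 0.09 ± 0.11 and the granule GTPase gene Rab3d at -0.09 ± 0.16 also did not pass. Of 40 other Rab genes 5 rose and 2 fell (median log2 0.05), beside 7.57% and 4.06% of all genes tested. There were 2 rises and 2 falls without both libraries numbered 1 and 3 rises and 1 fall without both numbered 3. Rab32, which serves lysosome-related organelles, went from 194, 190.1 and 199 CPM to 349, 296 and 290.1 CPM (log2 0.68 ± 0.11, adjusted p = 0.000989), with no overlap.

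Receptors for other microbial ligands moved both ways. Among surface Toll-like receptors, Cd14 and the TREM family 4 of 19 rose and 2 fell (median log2 0.09). Cd14, the co-receptor for lipopolysaccharide, went from 101, 116 and 106 CPM to 273, 453 and 402 CPM (log2 1.80 ± 0.22, edgeR adjusted p = 7.36e-05) and Tlr2, for bacterial lipoproteins, from 278, 278 and 285 CPM to 463, 631 and 683 CPM (1.08 ± 0.19, adjusted p = 0.0019). Tlr5, for flagellin, went from 81.9, 79.6 and 61.6 CPM to 55.9, 37.9 and 30.3 CPM (-0.85 ± 0.19, adjusted p = 0.00869), and Tlr4, the lipopolysaccharide receptor, did not pass (-0.37 ± 0.20, adjusted p = 0.311). Of 17 C-type lectin receptors 5 rose and 1 fell (0.18), with the same counts without either numbered pair. Clec4e, the receptor Mincle for mycobacterial glycolipids, went from 299, 305 and 249.5 CPM to 913, 754 and 869.9 CPM (log2 1.57 ± 0.12, adjusted p = 1.54e-06). Clec5a rose by 1.78 ± 0.12 and Clec4a1 by 2.56 ± 0.18.

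Of 17 TNF receptor family genes 6 rose and 1 fell (median log2 0.17). Tnfrsf1b, the second receptor for TNF, went from 498, 495 and 506 CPM to 1106, 1203 and 1129 CPM (log2 1.197 ± 0.14, edgeR adjusted p = 4.98e-05). The fall was not called without both libraries numbered 1, and the surface receptor list then had 1 fall. Adam17, the protease that sheds TNF and its receptors, rose by 1.18 ± 0.19. In the adhesion list Itgb1, the beta-1 integrin, rose by 0.82 ± 0.10, and Itgam (CD11b, -0.11 ± 0.15, adjusted p = 0.77), an integrin of phagocytes, did not pass.

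Receptor genes of the paired inhibitory and activating families moved both ways, 6 up and 7 down of 32 (median log2 -0.12). Of the 7 falls 5 were in the Cd300 cluster of immunoglobulin-like receptors. Cd300ld went from 319.9, 304 and 257 CPM to 155, 118 and 99.8 CPM (log2 -1.24 ± 0.16, edgeR adjusted p = 0.000118) and Cd300c2 from 162, 154 and 154 CPM to 86.6, 59.2 and 70.8 CPM (-1.12 ± 0.19, adjusted p = 0.00118). Cd300ld4 (-1.85 ± 0.41) and Cd300ld3 (-1.36 ± 0.28), near copies that may share reads with Cd300ld, were among the lowest changes, and Cd300lb fell as well (log2 -0.76 ± 0.16). Cd300e, in the same family, rose from 0.283, 1.41 and 0.754 CPM to 2.97, 5.33 and 5.24 CPM (2.45 ± 0.51). Siglece and Pilra, inhibitory receptors for sialic acid ligands, rose by 1.56 ± 0.18 and 1.38 ± 0.16.

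Receptors for growth factors and cytokines gave 7 rises and 1 fall among 25 genes (median log2 0.24). Il2rg, the common gamma chain, went from 17.5, 21.1 and 19.02 CPM to 174, 179 and 161 CPM (log2 3.16 ± 0.12, edgeR adjusted p = 2.35e-09). Csf1r, the receptor for the macrophage growth factor, went from 159.6, 164 and 184 CPM to 916, 945 and 693 CPM (log2 2.33 ± 0.13, adjusted p = 6.66e-08). Il10ra rose by 1.75 ± 0.11, and Tgfbr2, a receptor for TGF-beta, fell from 87.1, 80.9 and 79.4 CPM to 40.9, 45.99 and 46.5 CPM (-0.89 ± 0.10). Csf1r and Adgre1 (F4/80, 19.5, 21.96 and 20.9 CPM and 179.7, 128 and 110.2 CPM, log2 2.74 ± 0.22) also belong to the 17 monocyte and macrophage markers, whose sum was 742.4 to 877.5 CPM without and 1471 to 1821 CPM with CpG. They were the 2 of the 17 that passed, no marker of the list was at 0 in the knockout, and Ly6c2 (log2 0.35 ± 0.16), Ccr2 (-0.74 ± 0.37), C1qa (0.30 ± 0.48) and Fn1 (-1.14 ± 0.67) did not. Without Csf1r and Adgre1 the other 15 markers summed to 556.3 to 672.4 CPM without and 560.6 to 724.9 CPM with CpG. That sum leans on abundant markers such as Ly6c2, counted 3829, 3515 and 3378 times without and 6116, 4720 and 4639 times with CpG. It says little of sparser ones such as F13a1, counted 122, 253 and 916 times and then 68, 159 and 572 times. Under the block the list had 7 rises and 4 falls, among them Ly6c2 (log2 0.33, edgeR adjusted p = 0.0182), Ccr2 (-0.66, 0.0271), F13a1 (-0.901, 0.000299) and Fn1 (-1.004, 0.00107). In bulk RNA, more cells of a type and more RNA per cell cannot be told apart.

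Of 24 genes of itaconate, arginine, NAD and nucleoside metabolism 7 rose and 2 fell (median log2 0.40). Acod1, which makes itaconate, went from 138, 141 and 165 CPM to 721, 1076 and 1118 CPM (log2 2.71 ± 0.25, edgeR adjusted p = 5.62e-06). Lacc1, an enzyme of polyamine and purine metabolism, went from 0.189, 1.14 and 0.921 CPM to 31.4, 32.7 and 28.1 CPM (log2 5.31 ± 0.37, adjusted p = 5.13e-07). Adora2a, an adenosine receptor, went from 0.094, 0.439 and 0.419 CPM to 10.1, 11.2 and 7.04 CPM (4.83 ± 0.37, adjusted p = 1.24e-06). On the same axis the enzymes that make adenosine outside the cell fell: Nt5e (CD73) from 247, 311 and 373 CPM to 117, 114 and 187 CPM (-1.16 ± 0.24, adjusted p = 0.00591) and Entpd1 (CD39) from 622, 600.5 and 499.6 CPM to 387, 356 and 302 CPM (-0.72 ± 0.13, adjusted p = 0.00241). Of 29 genes of glucose transport and glycolysis only the transporter gene Slc2a6 passed, at 2.06 ± 0.19. Upp1, which splits uridine, rose by 1.85 ± 0.27, Txnrd1, a thioredoxin reductase, by 1.22 ± 0.20 and Acsl5, which activates fatty acids, by 1.205 ± 0.11. Ptges, which makes prostaglandin E2, went from 4.53, 4.30 and 4.78 CPM to 22.4, 28.3 and 26.7 CPM (log2 2.51 ± 0.19, adjusted p = 9.18e-07).

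Survival genes gave 6 rises and no fall among 24 (median log2 0.15). Bcl2a1b, one of the copies of the anti-apoptotic gene A1, went from 1.42, 1.93 and 2.26 CPM to 17.4, 22.1 and 21.5 CPM (log2 3.43 ± 0.25, edgeR adjusted p = 8.25e-07). The copies Bcl2a1a (3.49 ± 0.38) and Bcl2a1d (3.47 ± 0.64) are near identical to it, so how the reads divide among the 3 is uncertain. Cflar, which blocks caspase-8, rose by 1.07 ± 0.11, and Fas, a death receptor, from 72.5, 62.8 and 54.6 CPM to 309, 304 and 266 CPM (2.21 ± 0.12). Mcl1, on which neutrophil survival is known to depend, did not pass at log2 0.10 ± 0.15 (adjusted p = 0.789).

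The 15 lowest changes that passed, in genes of at least 5 CPM on average and with separate groups, ran from log2 -1.85 to -1.36. Thbd, which encodes thrombomodulin, an anticoagulant surface protein, went from 29.3, 29.9 and 24.04 CPM to 8.29, 10.4 and 7.58 CPM (log2 -1.66 ± 0.28, edgeR adjusted p = 0.00113). Eml1, a microtubule-binding protein, went from 33.9, 35.5 and 27.7 CPM to 6.46, 13.9 and 11.7 CPM (-1.59 ± 0.28, adjusted p = 0.0016), and Fbxo31, a ubiquitin ligase subunit, from 111, 106 and 83.8 CPM to 42.9, 36.5 and 23.2 CPM (-1.56 ± 0.21, adjusted p = 0.000235). Separate groups were a condition for this set, so they are no further evidence for these genes. Slc37a2, a sugar phosphate transporter, fell to 40.8, 33.2 and 23.1 CPM from 102, 82.9 and 77.7 CPM (-1.44 ± 0.18). Bend4, Itgb5, Dync2li1, Arhgap18 and Igf2bp2 fell with log2 changes between -1.46 and -1.40, and the Itgb5 call ended without both libraries numbered 3 (adjusted p = 0.107). Rab19 and Zranb3 were also in the set, and each lost its call without any of 4 libraries. For Rab19 these were CpG libraries 2 (adjusted p = 0.162) and 3 (0.137) and unstimulated libraries 1 (0.161) and 2 (0.103). For Zranb3 they were CpG libraries 1 (0.0641) and 2 (0.112) and unstimulated libraries 2 (0.079) and 3 (0.0732).

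Further members of the 15 highest changes were Mfsd7a, a membrane transporter gene, at log2 4.92 ± 0.34, Txlnb at 4.44 ± 0.43, Marcksl1, which encodes a MARCKS-like protein of the membrane and actin, at 4.004 ± 0.18 and Gm12250, an interferon-inducible GTPase gene, at 3.98 ± 0.54. Marcksl1 went from 66.3, 58.9 and 55.8 CPM to 904, 1232 and 766 CPM (edgeR adjusted p = 5.2e-09). Gm12250 went from 1.32, 1.41 and 0.921 CPM to 7.42, 23.5 and 26.7 CPM, again lowest in CpG library 1 among the CpG libraries (adjusted p = 0.000228).

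Of the housekeeping lists, some stayed without a call. None of 83 cytosolic ribosomal protein genes passed by edgeR, with 1 at an unadjusted p under 0.05 and 0 called by DESeq2, and 1 was called as a rise without both libraries numbered 3. None of 77 nuclear-encoded respiratory chain genes passed, again with 1 at an unadjusted p under 0.05 and 0 by DESeq2. None of 20 heat shock and chaperone genes passed, with 2 at an unadjusted p under 0.05 and 0 by DESeq2, and none of 18 V-ATPase genes, with 4 and 1. Under the block the heat shock list had 2 rises and 2 falls and the V-ATPase list 1 rise and 3 falls. The median log2 changes of these 4 lists lay between -0.06 and 0.18, close to that of all genes. Other such lists had calls, beside 7.57% rises and 4.06% falls over all genes tested. Mitochondrial ribosomal proteins gave 1 rise and 2 falls among 78 genes. Cytosolic aminoacyl-tRNA synthetases gave 1 fall among 22 and ribosome biogenesis 1 rise among 30.

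Transcripts of 1 gene moved apart in few genes. Of 4784 genes with at least 2 transcripts above the filters, 27 passed the gene-wise test of transcript usage, or 0.564% (edgeR diffSpliceDGE, adjusted p at most 0.05), and 15 of the 27 also changed in total level. Shares here are percents of the gene's expected counts, and the error with which the authors' program assigned reads to transcripts is not in the files. Nfkbiz had 2 transcripts above the filters. NM_001159395 held 14.7%, 14.9% and 8.14% of the gene without and 45.0%, 41.9% and 36.8% with CpG, at the cost of NM_001159394 (gene-wise adjusted p = 0.000331). The groups did not overlap, and the call stood under every alternative run.

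Shifts of the same kind passed in Tank, Tnip1, Birc3 and Snx10, of which the last encodes a sorting nexin of endosomes. For Tank, NM_001374667 went from 2.17%, 1.31% and 0% to 22.3%, 24.4% and 27.3% (edgeR gene-wise adjusted p = 0.000548). For Tnip1, NM_001199276 went from 5.07%, 16.6% and 7.46% to 29.7%, 26.3% and 30.9% (adjusted p = 7.63e-05), and for Snx10, NM_028035 from 3.93%, 7.13% and 4.97% to 26.4%, 26.2% and 25.6% (adjusted p = 3.44e-06). In each the CpG libraries all lay above the unstimulated ones. For Birc3 a predicted transcript, XM_006509828, fell from 32.7%, 29.4% and 34.1% to 7.21%, 4.05% and 4.50% (adjusted p = 0.00237). The Tnip1 call ended without CpG library 1 (0.108) or 3 (0.115), and that of Birc3 without CpG library 2 (0.0597) and with a minimum share of 10% per transcript (0.368). Prkd3, which encodes a protein kinase D, moved to NM_001171005, from 52.3%, 53.7% and 58.7% to 83.6%, 82.5% and 79.5% (adjusted p = 0.000823).

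The 8 transcripts with the largest change in share belonged to Zc3h12c, Ubox5, Arhgef3 and Ly6g5b, by 38.0 to 78.3 percentage points. Zc3h12c encodes an RNase of the regnase family and had only 28 counts in its lowest library. Its predicted transcript XM_006510333 went from 0% in all 3 unstimulated libraries to 100%, 67.1% and 67.8%, while the wild-type mean was 0% in both conditions. For Ubox5, with at least 50 counts, NM_001255994 went from 72.3%, 23.8% and 41.0% to 0% in all 3, while its wild-type mean went from 29.2% to 56.6%. Without any 1 unstimulated library Ubox5 was filtered out, so it was testable only through the group in which this transcript is high. In Arhgef3, an exchange factor for RhoA with at least 1332 counts per library, NM_001289687 rose from 39.2%, 65.4% and 42.5% to 86.9%, 99.0% and 91.7% (edgeR gene-wise adjusted p = 0.0243). Ly6g5b moved to NM_148939, from 40.7%, 21.2% and 35.4% to 70.5%, 77.4% and 75.9% (adjusted p = 0.00486), a call that ended with the 6 knockout libraries alone (0.0826) and under the block (0.0534). Without unstimulated libraries 1, 2 or 3 the adjusted p of Zc3h12c was 0.0793, 0.117 and 0.0893, and without any CpG library it was filtered out. With the knockout libraries alone it was 0.0814 and under the block 0.145. The Arhgef3 call ended without CpG library 3 (0.109) or unstimulated library 1 (0.103) or 3 (0.0512), or with the knockout libraries alone (0.173).

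**Figure D4:**
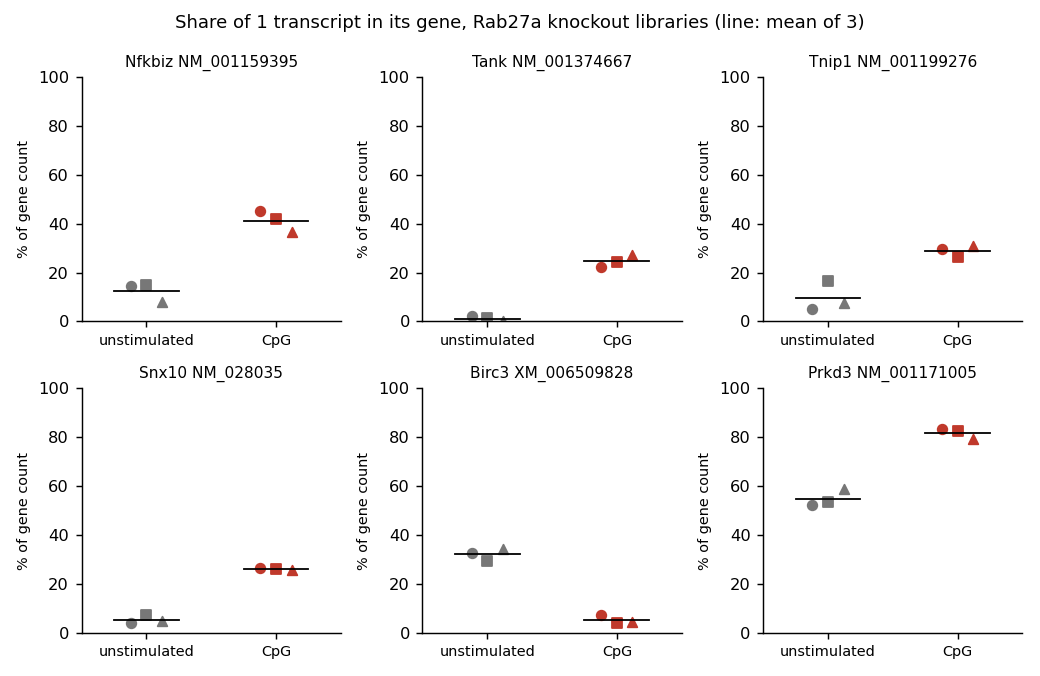
Percent of the gene's counts held by 1 transcript of Nfkbiz, Tank, Tnip1, Snx10, Birc3 and Prkd3 in each knockout library (vertical axis from 0 to 100, 1 symbol per library number, line at the mean of 3). In each panel the 3 CpG libraries (red) lie on one side of the 3 unstimulated ones (grey), from 14.9% or less to 36.8% or more for Nfkbiz.

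Set beside the wild-type response, the knockout response had the same direction and, with all 12 libraries in 1 fit, more calls. In wild-type libraries 652 genes passed, or 6.04%, of which 512 rose and 140 fell. Of the wild-type rises 92.8% also passed in the knockout, and of the knockout rises 58.1% passed in wild-type. For falls the shares were 76.4% and 24.4%. Among the 512 genes that rose in wild-type, 509 were higher with CpG in the knockout as well, and the median log2 change was 1.12 in wild-type and 1.33 in the knockout. Fitted on the 6 libraries of each genotype alone, the counts were closer, with 1014 calls in the knockout and 859 in wild-type. In the joint fit the wild-type count is 432 without wild-type CpG library 2 and 425 without unstimulated wild-type library 1. Under the block there were 1824 wild-type and 2591 knockout calls. In the interferon lists wild-type had 5 rises among GBP and IRG genes and 12 among antiviral effectors, with medians of 1.28 and 0.77. The knockout had 12 and 30, with medians of 2.65 and 1.23, and 9 and 21 rises without both libraries numbered 3. Not every list went this way. Chemokine genes had 8 rises in wild-type and 6 in the knockout (median log2 1.8 and 0.91), and cytokine genes 14 and 12 (0.71 and 0.84). No list was tested for a difference between the genotypes. The 13 T and NK cell markers summed to 82.8 to 158.0 CPM in the 6 knockout and to 7.85 to 13.4 CPM in the 6 wild-type libraries. Nearly all of this gap was in 1 gene, Cd3d, at 75.7 to 153.3 CPM in the knockout and 3.11 to 6.54 CPM in wild-type. The other 12 markers summed to 4.45 to 15.6 CPM and 3.84 to 8.29 CPM, which overlap. The part of Cd3d or of these cells in any difference between the genotypes was not tested.

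The test of the difference itself found no gene by edgeR without a block. In the interaction of genotype and CpG 0 genes passed by edgeR (lowest adjusted p 0.562), 365 had an unadjusted p under 0.05, and DESeq2 called 3, which were Alas1, Csf1r and Rnaset2b. Under the block edgeR called 13 genes, among them Alas1 (adjusted p = 0.0408), P2ry13 (0.046), Spp1 (0.0408), Arhgef3 (0.046) and Hp (0.0495). The log2 differences, knockout minus wild-type, went both ways. They were above 0 in Alas1, Il18bp, Arhgef3, P2ry13, Lair1 and Hp. In Spp1, Cd93, Cd200r4, Met, Nek6, Clec4n and Zfand2a they were below 0. The main fit did not take same-numbered libraries as pairs. Alas1, the first enzyme of haem synthesis, had the smallest p: it went from 64.7, 63.6 and 71.6 CPM to 245, 328 and 269 CPM in the knockout (log2 2.07 ± 0.13) and from 125, 131 and 128 CPM to 255, 303 and 241 CPM in wild-type (1.06 ± 0.12), a difference of 1.02 ± 0.17. The CpG levels of the genotypes overlapped, and each unstimulated knockout library lay below each unstimulated wild-type one. Csf1r rose by 1.48 ± 0.13 in wild-type, a difference of 0.85 ± 0.18, and Smpdl3b by 4.40 ± 0.21, a difference of 1.91 ± 0.36. P2ry13, a purine receptor, and Snx10 differed by 0.87 ± 0.20 and 0.71 ± 0.16. Cxcl2 was the one of the 8 named genes whose rise was smaller in the knockout, with 24.9, 21.1 and 19.2 CPM and 75.9, 84.5 and 78.2 CPM in wild-type (difference -0.96 ± 0.21). Rnaset2b, which has a near-identical copy, fell in the knockout (-1.06 ± 0.21) and was at 0.34 ± 0.21 in wild-type. Slco3a1, an organic anion transporter gene, was lower with CpG in the knockout (-0.30 ± 0.17, adjusted p = 0.315) and rose in wild-type (0.70 ± 0.17, adjusted p = 0.0228). Without the block the adjusted interaction p of all 8 was at least 0.562 by edgeR.

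**Figure D5:**
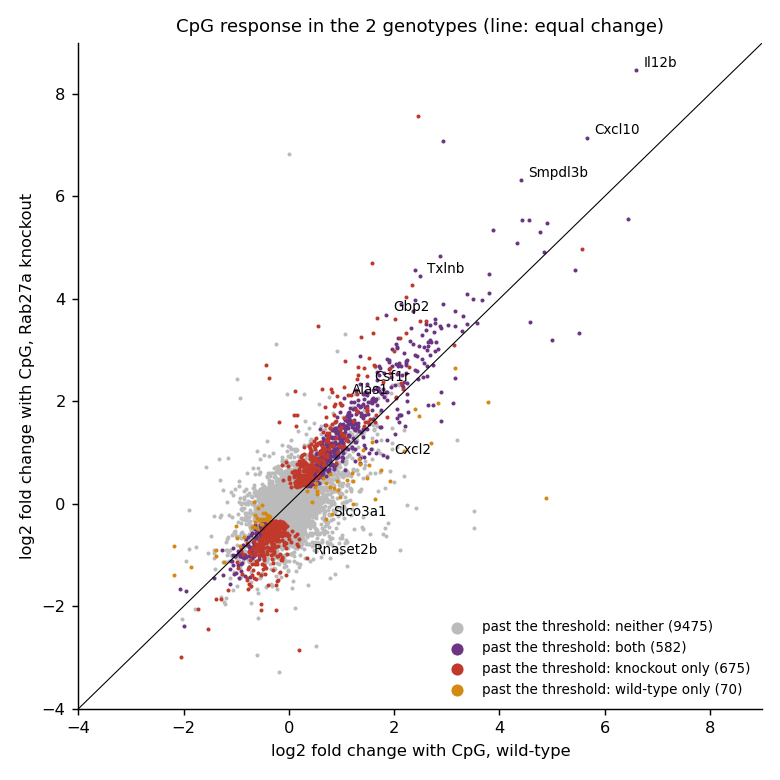
Log2 fold change with CpG of each of the 10802 genes in wild-type (horizontal) and in the knockout (vertical), with the line of equal change, coloured by which genotype passed the threshold. Genes called in both (purple, 582) lie around the line, more of them above it than below, and no gene was called in opposite directions.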

How the data were processed

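The 12 libraries hold polyadenylated RNA of mouse bone marrow neutrophils. Bowtie2, RSEM 1.2.28 and GRCm39 are listed, without roles, per the submitters' processing notes. The sources used here do not give strandedness or trimming. The deposited values are expected counts per RefSeq transcript, which need not be whole. The deposited TPM values, scaled by the authors for length and depth, served to compare genes, and their deposited FPKM values were not used. Expected counts of 54716 transcripts were summed to 15986 genes and rounded; 103 genes without a symbol held at most 0.101% of a library.

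All 12 libraries entered 1 edgeR 4.0.16 quasi-likelihood fit (R 4.3.3, trimmed mean of M values scaling, filterByExpr, 4 groups without a block), leaving 10802 genes. CPM refer to the scaled library size. Totals of 10928813 to 15513279 counts per library and a biological coefficient of variation of 17.1% set the precision. Adjusted p-values are Benjamini-Hochberg over all genes tested, 2-sided. Transcript usage was tested with edgeR's diffSpliceDGE. The tests were also run on simulated data. Alternatives included DESeq2 1.42.0, other scalings and filters, blocks, and leaving out libraries; those without 2 knockout libraries of 1 number were added after seeing the data. Same-numbered wild-type libraries correlated in their deviations at 0.279, 0.408 and 0.437. The wild-type calls and changes still come from the fit without a block, unless the block is named. Counting intervals are exact, at 95%, and cover counting error only.

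Genes were named as the 15 highest and 15 lowest changes with a mean of at least 5 CPM and no overlap, up to 4 called members per list with other members to show what did not pass, and the 8 genes and 8 transcripts leading the interaction and usage tests. Genes, lists and members were chosen with earlier results of these data known. Promoters come from RefSeq (GRCm38.p6), matched by NCBI gene ID for 8755 genes. Some genes that the rule names are not reported here. The CpG oligonucleotide's sequence and a genome of the build used were not used here.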

Additional observations from a re-analysis of the deposited data

Results flagged for a closer look

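Slco3a1 was singled out because its CpG libraries lay on opposite sides of the unstimulated ones in the genotypes. All 3 knockout CpG libraries (16.2, 16.5 and 14.3 CPM) lay below all 3 unstimulated ones (19.8, 20.5 and 17.8 CPM), and all 3 wild-type CpG libraries (20.3, 20.1 and 21.5 CPM) lay above theirs (11.7, 9.91 and 16.6 CPM). The difference in log2 change was -1.0, with an interaction p of 0.000857 before and 1.0 after adjustment by edgeR, so it did not pass. In the knockout alone the change did not pass either (adjusted p = 0.315). The groups of 3 are too small for a check of single outlying libraries.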

How the results depend on the processing

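Of the 344 genes named by the rule, 284 were called, 231 stayed called without each knockout library in turn, and none changed direction under any alternative run. The 1257 calls ranged from 818 to 1347 when single libraries were left out, the rises from 611 to 859 and the falls from 207 to 488. For wild-type the 652 calls ranged from 425 to 506, and for transcript usage the 27 calls from 14 to 36. A test against a 2-fold change left 191 knockout calls, all 191 rises and 0 falls, and 107 wild-type calls. Scaling by library size alone gave 778 falls, and curated transcripts alone 12 usage calls. For the interaction DESeq2 called 3 genes. Other settings for the knockout (DESeq2 1464, a filter of 1 CPM 1317, relative log expression 1252, no filter 1232, robust fit 1254, knockout libraries alone 1014) stayed within 1.5 times of the count, and the wild-type libraries alone gave 859. The cause of these shifts was not tested, beyond fewer libraries in those that leave some out.

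The shared replicate numbers were not taken as pairs in the main fit of either genotype. Same-numbered knockout libraries correlated in their deviations from the group means at 0.619, 0.085 and 0.678, so pair 2 was under 0.1, although each library correlated best with its own number. Those of different numbers correlated at -0.637 to 0.03. The 0.1 limit does not decide whether the numbers mark pairs, and the main knockout p-values leave any pairing out. With library number within genotype as a replicate block, 2591 knockout genes were called (1380 rises, 1211 falls), 1824 in wild-type and 13 in the interaction, and with number across genotypes as the block 1401 in the knockout. The knockout libraries alone with the block gave 1813, of which 821 fell. Genes with few unstimulated counts, such as Il12b, have wide counting intervals, and genes near the filter were not detectable at this depth if they changed little.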
